A study of Mus musculus with 8 samples.

Results

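Sox10, Foxd3, Tfap2a, Tfap2b, Sox9, Pax3, Ets1 and Dlx2 are 8 transcription factor genes of the neural crest, taken by name from the 55422 features of the count tables. They were followed in chimeric mouse embryos across genotypes, stages and the crest-like, neural-like and ectoderm-like groups of cells. scRNA-seq with 10x Genomics 3′ chemistry had been run on 8 libraries of sorted cells. The injected ES cells lack all TET enzymes (Tet-TKO), have a mixed C57BL/6J-129Sv background and carry H2B-tdTomato under the CAG promoter. They were injected into C57BL/6J blastocysts, which were then carried by CD1 recipients. Cells of pooled chimeras were separated by their tdTomato fluorescence, positive cells being Tet-TKO and negative ones WT host. The 6 libraries of E8.5 are 4 Tet-TKO ones and 2 WT host ones, whereas E7.5 has 1 of either kind. The Tet-TKO cells come from 1 labelled ES cell line and the host cells never passed through ES culture, so that genotype, strain and cell origin cannot be told apart. Each library is a pool of embryos, and p-values measure only the spread between these libraries.

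The neural crest is a population that arises at the border between the neural plate and the surface ectoderm, leaves the neural tube by an epithelial-mesenchymal transition and migrates into the head, the pharyngeal arches and the trunk. It gives rise to facial skeleton, peripheral neurons, glia and pigment cells. Signals of the WNT, BMP and FGF families induce a border set of transcription factors, among them Pax3, Tfap2a and Dlx-family genes, and these in turn are followed by a specifier set that includes Foxd3, Sox9, Tfap2b, Ets1 and Sox10. Several of the 8 genes also act elsewhere: Sox9 in the notochord and cartilage, Ets1 in the endothelium, Pax3 in the dorsal neural tube and somites, and Tfap2a in the surface ectoderm.

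Foxd3 and Tfap2b, the members with the lowest and the highest fold changes in the neural-like and ectoderm-like classes, are shown by the bases around their RefSeq starts on GRCm38.p6, because TET enzymes oxidise the methylated cytosine of CG dinucleotides, which are printed in capitals. Methylation itself was not measured in these files. In other samples, with erythroid, surface ectoderm and pharyngeal mesoderm cells among them, the study reported TET-dependent demethylation at distal regulatory elements. It described the effects at promoters as negligible. Whether the CG content of the windows bears on the levels was not tested. The Foxd3 window is chr4:99656049-99656348 on the + strand, and the Tfap2b window is chr1:19211804-19212103 on the + strand, which lies inside the longer gene that GENCODE M21 places at 19208914 to 19238576.
Foxd3: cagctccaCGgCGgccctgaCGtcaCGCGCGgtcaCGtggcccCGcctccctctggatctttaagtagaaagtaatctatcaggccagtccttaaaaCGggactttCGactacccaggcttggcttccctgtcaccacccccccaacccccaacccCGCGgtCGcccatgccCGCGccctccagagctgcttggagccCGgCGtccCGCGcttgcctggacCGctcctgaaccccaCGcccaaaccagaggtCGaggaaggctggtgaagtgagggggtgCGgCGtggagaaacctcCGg
Tfap2b: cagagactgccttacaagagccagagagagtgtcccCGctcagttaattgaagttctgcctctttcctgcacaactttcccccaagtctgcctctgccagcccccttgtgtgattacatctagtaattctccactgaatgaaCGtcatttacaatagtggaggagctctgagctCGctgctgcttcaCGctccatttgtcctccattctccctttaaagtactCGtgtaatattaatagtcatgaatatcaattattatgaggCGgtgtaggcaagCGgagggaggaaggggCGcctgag
The Foxd3 window holds 25 CG dinucleotides and the Tfap2b window 8, whereas the median of 32817 windows of the same 300 bases is 7, with quartiles of 3 and 20. Of the other members, Dlx2 has 29 and the 2 windows of Tfap2a have 11 and 15. The letters GCCNNNGGC, which AP-2 proteins such as those of Tfap2a and Tfap2b are known to bind and which read the same on both strands, are in none of the 5 member windows and in 16.6% of all windows. Sox10, Sox9, Pax3 and Ets1 have no entry in the set of promoter windows used here.

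Levels are given as CPM, the UMIs (unique molecular identifiers, which count molecules) of a gene for every 1000000 UMIs of the same cells. After filtering, the E8.5 libraries held 1012 to 9552 cells with medians of 12176 to 68704 UMIs per cell, Tet-TKO libraries 3 and 4 being the smallest in cells and the deepest per cell. tdTomato stood at 93.1 to 144 CPM in the Tet-TKO libraries of E8.5 and at 0.503 and 0.938 CPM in the WT host libraries. Tet1 read 9.93, 10.96, 20.1 and 20.9 CPM in the Tet-TKO and 22.5 and 20.4 CPM in the WT host libraries, but a 3′ tag need not lie in the deleted exons and so does not check the knockout. Libraries shared at most 28 cell barcodes.

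Cells were clustered without the 8 members and classes were named from other markers. One cluster was neural crest-like, with Apod and Sox5 among its leading genes, and it held 328 cells. It comprised 5, 21, 32 and 4 cells in Tet-TKO libraries 1 to 4 and 58 and 208 cells in WT host libraries 1 and 2. Its share of cells averaged 0.519% ± 0.595 (SD, n = 4) in Tet-TKO and 1.50% ± 1.13 (SD, n = 2) in WT host libraries (exact permutation test, two-sided p = 0.267). With 15 splits this test allows no p below 0.133, so it cannot decide between the groups. In the libraries numbered 1 the share was 0.0710% in Tet-TKO and 0.702% in WT host cells, and in those numbered 2 it was 0.220% and 2.30%. Tet-TKO libraries 3 and 4 stood at 1.39% and 0.395%, so that library 3 lay above WT host library 1. Whether the numbers pair the libraries is not settled. In WT host cells the level in the crest-like cluster exceeded that of the whole libraries by 39.4-fold for Sox10, 30.9-fold for Tfap2b, 26.1-fold for Foxd3, 18.4-fold for Dlx2, 12.4-fold for Sox9, 11.1-fold for Tfap2a, 9.85-fold for Ets1 and 7.40-fold for Pax3. The 11 crest markers used for the name, none of them a member, summed to 808 and 896 CPM in WT host and to between 813 and 1352 CPM in Tet-TKO crest-like cells, with up to 5 of them at 0 in the libraries of fewest cells. Crabp1, which hindbrain cells also express, made up 451 and 523 CPM of the WT host sums, and with it the same markers summed higher in hindbrain-like cells, to 3403 and 5124 CPM. The other 10 summed to 357 and 374 CPM in WT host crest-like cells, against 77.2 and 115 CPM in hindbrain-like ones.

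**Figure D1:**
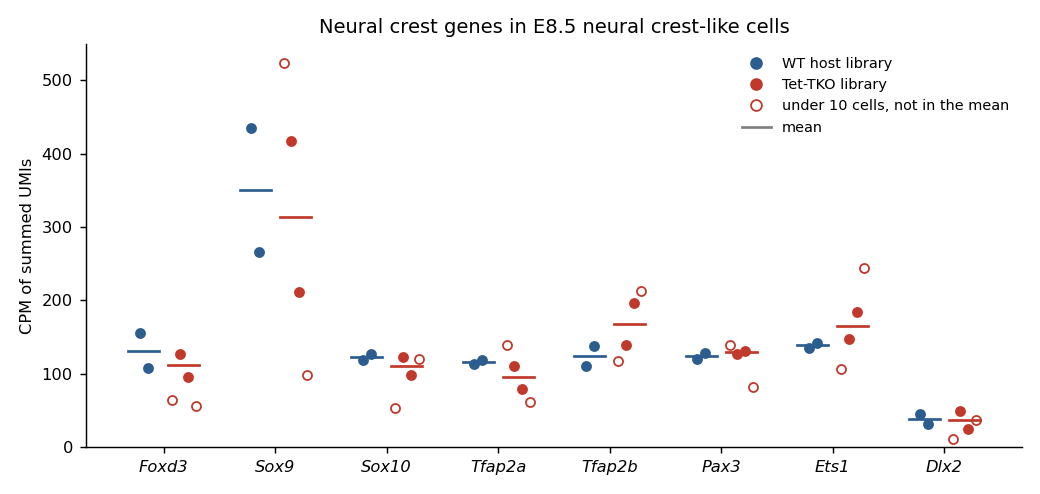
Levels of the 8 members in neural crest-like cells at E8.5, in CPM on a linear axis, 1 point per library and a line for the mean of the libraries that entered the test. Tet-TKO libraries 1 and 4, with 5 and 4 cells, are open points. With these included, the points of both genotypes overlap for all 8 members.

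Foxd3, a forkhead repressor that keeps crest cells undifferentiated, read 64.2, 127, 95.8 and 56.1 CPM in crest-like cells of Tet-TKO libraries 1 to 4, compared with 155.8 and 107.3 CPM in WT host libraries 1 and 2. Sox9, an HMG-box factor of crest formation and later of cartilage, read 524, 418, 211 and 98.2 CPM against 435 and 266 CPM. Ets1, an ETS factor that acts in cranial crest delamination, read 107, 147, 183 and 244 CPM against 135 and 142 CPM. Tet-TKO libraries on both sides of the WT host values were seen for Sox9 and Ets1, whereas 3 of the 4 Foxd3 values lay under both WT host values.

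Sox10, which marks migrating crest and later drives glial and pigment fates, read 53.5, 123, 98.8 and 121 CPM in Tet-TKO and 118 and 127 CPM in WT host crest-like cells. Tfap2b, an AP-2 factor of crest and facial development, read 118, 139, 197 and 213 CPM against 110 and 138 CPM. Its 2 highest values were those of Tet-TKO libraries 3 and 4, but library 1 lay between the WT host libraries. Among the border genes, Tfap2a read 139, 111, 79.5 and 61.7 CPM against 113 and 118 CPM, and Pax3 read 139, 127, 131 and 81.3 CPM against 120 and 128 CPM. Dlx2, a homeobox gene of the arch crest, read 10.7, 49.1, 24.5 and 36.5 CPM against 44.5 and 31.4 CPM. With Tet-TKO libraries 1 to 4 the groups overlapped for all 8 members, but the values of libraries 1 and 4 rest on 1 to 87 UMIs per gene. In libraries 2 and 3 alone, Tfap2b and Ets1 lay above both WT host libraries and Tfap2a below both. How many of all genes did so was not counted, so this order of 2 against 2 libraries is not read as a difference of the members.

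Differential expression was tested with edgeR's quasi-likelihood test on UMIs summed per library, over libraries with at least 10 cells of a class. In crest-like cells these were Tet-TKO libraries 2 and 3 and both WT host libraries. Genes were called where the adjusted p (Benjamini-Hochberg over all genes tested) was under 0.01 and the log2 fold change at least 1 in size. Of 7718 genes, 47 were called, 32 higher and 15 lower in Tet-TKO cells. None of the 8 members was called (background 0.609%), whereas 999 genes had an unadjusted p under 0.05. By the same test, Tfap2b had a log2 fold change of 0.45 (SE 0.19, adjusted p = 0.301) and Tfap2a one of -0.46 (SE 0.21, adjusted p = 0.351). The others lay between -0.35 for Foxd3 (SE 0.23, adjusted p = 0.560) and 0.26 for Ets1 (SE 0.18, adjusted p = 0.592), with Pax3 at 0.02 (SE 0.19, adjusted p = 0.985). The 95% intervals of all 8 differences lay between -1.05 and 0.85 on the log2 scale, so that a change of Foxd3 down to -0.82 or of Sox9 down to -0.85 was not excluded by its interval. None of the 8 was called under DESeq2 either, with 17 genes called in all.

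Cells with tdTomato UMIs were fewer in the Tet-TKO crest-like cells of library 2 (52.4% of 21 cells) and library 3 (24 of 32 cells) than in these libraries as a whole (60.8% and 87.2%). In libraries 1 and 4 it was the other way, with 4 of 5 and 4 of 4 crest-like cells against 67.2% and 83.4% of all cells, and no crest-like host cell had one. Neural-like and ectoderm-like classes stood at 64.4% to 81.6%, 56.9% to 64.8%, 88.6% to 95.4% and 87.0% to 100% in libraries 1 to 4. The erythroid markers, RNA of red cells that can float free in a droplet run, summed to 530 and 1454 CPM in WT host crest-like cells and to between 5.61 and 49.1 CPM in Tet-TKO ones. Their part in the differences was not tested.

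After thinning each cell to 5000 UMIs at random, so that depth is equal, the share of WT host crest-like cells with a UMI was 61.4% for Sox9, 49.2% for Ets1, 48.8% for Tfap2b, 44.1% for Pax3, 41.3% for Tfap2a, 39.8% for Sox10, 38.2% for Foxd3 and 12.2% for Dlx2, of 254 cells. In Tet-TKO crest-like cells, of which 58 were deep enough, the shares ran from 13.8% for Dlx2 to 60.3% for Sox9. Sox10 was at 25.9% there, with an exact 95% binomial interval of 15.3% to 39.0% against 33.7% to 46.1% in WT host cells. Before thinning, the medians of 23308 and 15699 UMIs per cell gave 79.0% and 76.3% for Sox10. In WT host erythroid-like cells, read as a background, the thinned shares were 0.0934% for Dlx2 to 4.01% for Ets1. These were 2142 cells at a median of 16777 UMIs. Ets1 had a mean of 60.4 CPM in WT host haematoendothelial progenitor-like cells, so its erythroid-like share need not be background. Intervals here cover counting error only.

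In single crest-like cells thinned to 5000 UMIs, a member at these levels can have no UMI by counting error alone, so that the sets seen per cell are sets of UMIs, not of genes expressed. The median was 3 of the 8 in both genotypes and the highest count was 7. Of the 97 WT host crest-like cells with Foxd3, 76.3% also had Sox9, against 52.2% of the cells without Foxd3. Sox10 was in 39.2% of the cells with Foxd3 and in 40.1% of those without, and Pax3 was in 33.7% of the cells with Sox10 and in 51.0% of those without. These shares pool 2 libraries and are a description of cells that share depth and handling.

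Cells with at least 3 members, which need not be crest cells, were counted without clusters. At 5000 UMIs they made up 0.414%, 0.730%, 1.84% and 0.760% of Tet-TKO libraries 1 to 4 and 1.32% and 3.56% of WT host libraries 1 and 2. Tet-TKO library 3 lay between both WT host libraries and the others lay below them. The means were 0.936% ± 0.623 (SD, n = 4) and 2.44% ± 1.58 (SD, n = 2), with a two-sided p of 0.267 in an exact permutation test that again allows none below 0.133. With at least 2 members the means were 4.34% and 4.81%. Without thinning the order of the means turned, at 7.79% in Tet-TKO and 4.18% in WT host libraries, the deep Tet-TKO libraries 3 and 4 reaching 11.3% and 13.9%. By class, 195 of 254 crest-like WT host cells (76.8%) had at least 3 members, as had 67 of 407 hindbrain-like (16.5%), 59 of 708 midbrain-like (8.33%) and 26 of 1055 surface ectoderm-like cells (2.46%). In Tet-TKO libraries these were 40 of 58 crest-like (69.0%), 16 of 451 hindbrain-like (3.55%), 30 of 712 midbrain-like (4.21%) and 23 of 1456 surface ectoderm-like cells (1.58%). Of all cells with at least 3 members, the crest-like class held 49.0% in WT host and 28.2% in Tet-TKO libraries. In WT host libraries 13 of 2142 erythroid-like cells (0.607%) were counted as well.

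**Figure D2:**
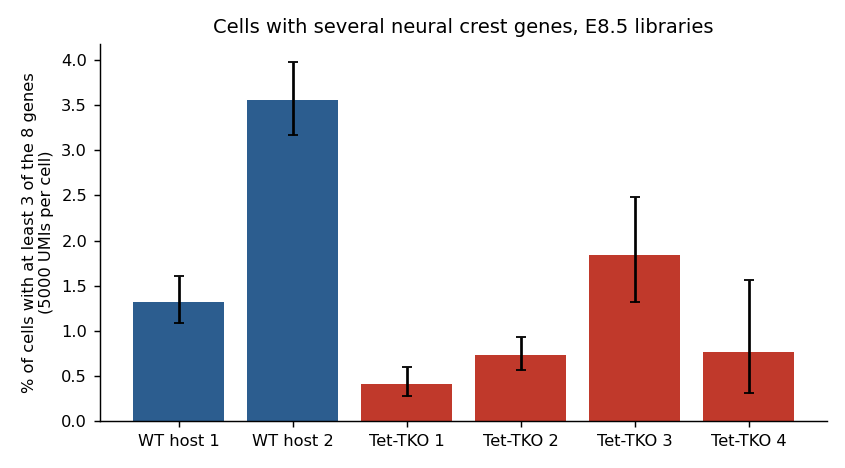
Percentage of cells with a UMI of at least 3 of the 8 members in each E8.5 library after thinning every cell to 5000 UMIs, with exact 95% binomial intervals. Tet-TKO libraries lie between 0.414% and 1.84% and WT host libraries at 1.32% and 3.56%.

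Across the 28 classes that could be ranked in WT host cells, the crest-like class was first for every member but Sox9. Foxd3 ranged from 131.5 ± 34.2 CPM (SD, n = 2) in crest-like cells to 50.4 ± 25.2 CPM in hindbrain-like, 25.6 ± 7.45 CPM in midbrain-like and 11.6 ± 1.34 CPM in spinal cord-like cells (SD, n = 2), with no overlap between neighbours in that order. Sox10 ranged from 123 ± 6.60 CPM in crest-like to 14.9 ± 9.44 CPM in hindbrain-like cells (SD, n = 2), and 64.8% of all its WT host UMIs at E8.5 lay in the crest-like class. Tfap2b ranged from 124 ± 19.8 CPM to 23.1 ± 15.5 CPM in hindbrain-like cells (SD, n = 2), with 52.8% of its UMIs in the crest-like class.

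The members other than Foxd3, Sox10 and Tfap2b were broader. Their crest-like levels were 7.40-fold (Pax3) to 18.4-fold (Dlx2) those of whole WT host libraries. Tfap2a stood at 116 ± 3.39 CPM in crest-like and 86.4 ± 2.64 CPM in surface ectoderm-like WT host cells (SD, n = 2), and 50.1% of its UMIs came from the surface ectoderm. Pax3 was at 124 ± 5.69 CPM in crest-like and 115 ± 8.90 CPM in hindbrain-like cells (SD, n = 2), which overlapped. Sox9 was highest in notochord-like cells, at 460 ± 59.7 CPM, and overlapped there with the crest-like 350 ± 120 CPM (SD, n = 2). Ets1 went from 138.5 ± 4.34 CPM in crest-like to 85.4 ± 1.64 CPM in endothelium-like cells, and Dlx2 from 37.9 ± 9.30 CPM to 9.53 ± 0.569 CPM in surface ectoderm-like cells (SD, n = 2), behind an unnamed cluster of 12.8 ± 18.05 CPM.

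**Figure D3:**
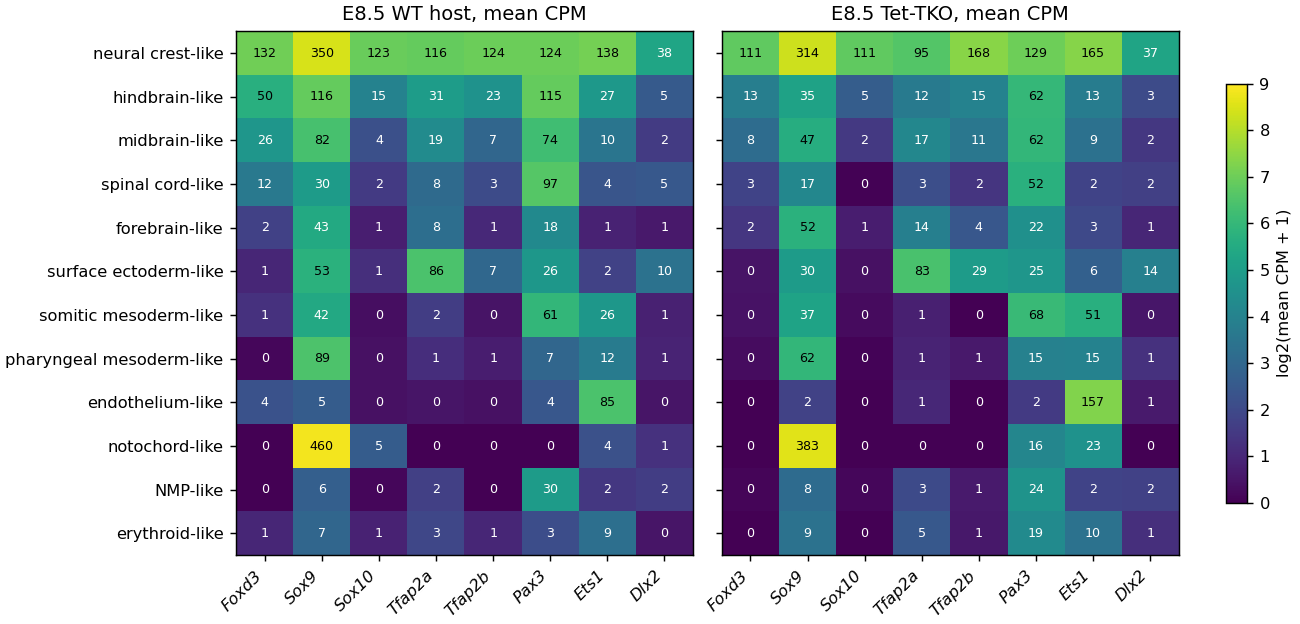
Mean CPM of each member in the E8.5 classes, as log2(mean CPM + 1) by colour with the mean CPM written in each field, WT host cells in one panel and Tet-TKO cells in the other. Foxd3, Sox10 and Tfap2b are brightest in the neural crest-like class, Tfap2a is also bright in surface ectoderm-like cells, Sox9 in notochord-like cells and Ets1 in endothelium-like cells.

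Outside the crest, hindbrain-like cells were compared first. All 8 members had lower fitted levels in Tet-TKO cells of this class, though none passed the test, and for 4 of them every Tet-TKO library lay below both WT host libraries. Pax3, which acts in the dorsal neural tube, read 63.5, 66.9, 66.0 and 52.7 CPM in Tet-TKO libraries 1 to 4, compared with 109 and 121 CPM in WT host libraries 1 and 2. Sox9 read 21.5, 29.2, 42.7 and 47.6 CPM against 72.4 and 159.5 CPM. Tfap2a read 13.3, 10.4, 10.3 and 13.5 CPM against 22.8 and 38.7 CPM. Foxd3 read 4.61, 12.2, 10.9 and 25.7 CPM against 32.5 and 68.2 CPM. Groups that did not overlap, in either direction, made up 20.2% of the genes tested, against 4 of the 8 members, all lower. WT host library 2 had the highest value of all 4 genes.

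None of the 8 members was called in hindbrain-like cells (background 0.32%, 33 of 10314 genes), and 1005 genes had an unadjusted p under 0.05. By edgeR's test, Sox9 had a log2 fold change of -1.73 (SE 0.30, adjusted p = 0.0275), Pax3 of -0.86 (SE 0.15, adjusted p = 0.0277), Tfap2a of -1.40 (SE 0.26, adjusted p = 0.0391) and Foxd3 of -1.99 (SE 0.42, adjusted p = 0.0755). Sox10 at -1.82, Ets1 at -1.18, Tfap2b at -0.86 and Dlx2 at -0.71 had adjusted p-values of 0.479 to 0.754. Tet-TKO library 4 read 16.1 CPM for Sox10 and 42.4 CPM for Tfap2b where the other Tet-TKO libraries read 0.512 to 2.72 CPM and 4.10 to 6.91 CPM. Library 4 holds 23 hindbrain-like cells. DESeq2 called Sox9 and Foxd3, and without the filter on low counts edgeR called Foxd3, Sox9, Tfap2a, Sox10 and Ets1. These fits called 66 of 10314 and 188 of 21670 genes in all. Without Tet-TKO library 4, edgeR called Foxd3 (log2 fold change -2.37, SE 0.35, adjusted p = 0.00903) among 42 of 10483 genes. Without WT host library 2, the log2 fold changes were -1.06 for Sox9, -0.79 for Pax3, -0.97 for Tfap2a, -1.34 for Foxd3 and -0.88 for Sox10, while Tfap2b turned to 0.12 and Ets1 to 0.046. With the library number as a block, a fit that rests on libraries 1 and 2 of each genotype, Foxd3 (-2.47), Sox9 (-2.15), Tfap2a (-1.39), Tfap2b (-2.03), Ets1 (-2.25) and Sox10 (-3.69) were called. The block called 118 of 10314 genes in all, from a fit that leaves little to measure the spread between libraries.

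Crest markers were also read in the hindbrain-like cells. Crabp1 stood at 3325 CPM or more there in every library, and the other 10 of the 11 crest markers summed to 44.5, 51.8, 69.6 and 90.7 CPM in Tet-TKO libraries 1 to 4 and to 77.2 and 115 CPM in WT host libraries 1 and 2, with 1, 1, 2 and 4 of the 10 at 0 in Tet-TKO and 2 and 0 in WT host libraries. In crest-like cells the same 10 genes summed to between 381 and 423 CPM in Tet-TKO and to 357 and 374 CPM in WT host libraries. Ednrb, an endothelin receptor of crest cells, read 3.58, 1.57, 4.84 and 3.22 CPM against 7.77 and 13.9 CPM in hindbrain-like cells. Sox5 did not overlap either, at 0.512, 0.628, 2.12 and 6.43 CPM against 7.77 and 6.82 CPM. All other markers of the list overlapped between genotypes. Among these, Cdh6 read 14.8, 22.6, 36.0 and 46.3 CPM against 23.8 and 39.8 CPM. Crabp1 read 4138, 6772, 4798 and 4711 CPM against 3325 and 5009 CPM. The erythroid markers summed to 9.004 to 49.1 CPM in Tet-TKO and to 493.5 and 1301 CPM in WT host hindbrain-like cells. The part of these markers in the differences was not tested.

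The share of hindbrain-like cells with a UMI at 5000 UMIs was 14.3% for Foxd3, 25.1% for Sox9, 14.005% for Tfap2a and 39.6% for Pax3 in WT host cells, of 407. In Tet-TKO cells, of 451, it was 3.77%, 12.2%, 4.88% and 24.6%. All of them lay above the shares in WT host erythroid-like cells, which were 0.420% for Foxd3, 2.38% for Sox9, 1.03% for Tfap2a and 1.26% for Pax3. Before thinning, at medians of 12658 and 14738 UMIs, Foxd3 was in 19.7% of WT host and 7.30% of Tet-TKO cells.

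**Figure D4:**
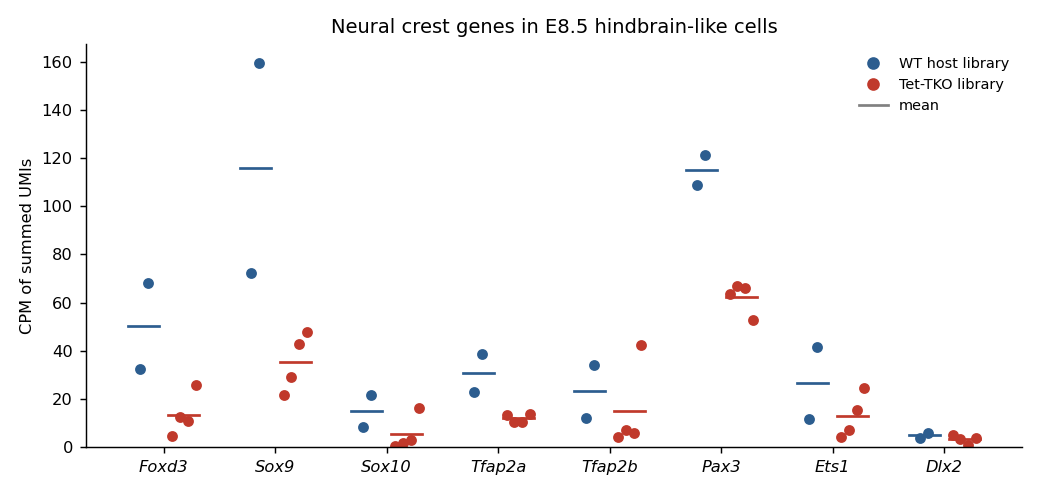
Levels of the 8 members in hindbrain-like cells at E8.5, in CPM, 1 point per library and a line for each group mean. For Pax3, Sox9, Tfap2a and Foxd3 all 4 Tet-TKO points lie under both WT host points, and Tet-TKO library 4 stands above the other Tet-TKO libraries for Sox10 and Tfap2b.

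In spinal cord-like cells Pax3 read 56.4, 54.2, 52.3 and 44.6 CPM in Tet-TKO and 91.6 and 103 CPM in WT host libraries, a log2 fold change of -0.90 (SE 0.16, edgeR adjusted p = 0.0428) that met neither threshold of the call. Foxd3 read 5.16, 3.06, 1.79 and 0 CPM against 12.5 and 10.6 CPM (log2 fold change -2.28, SE 0.71, edgeR adjusted p = 0.312), and the block on library number called it at -1.47. Sox9 read 19.2, 19.8, 13.97 and 15.6 CPM against 33.8 and 25.7 CPM, and Ets1 stayed under 5 CPM in both genotypes. Pax3, Foxd3, Sox9 and Ets1 did not overlap between genotypes, 4 of 7 members tested against 21% of genes. No member was called in this class (background 0.261%), and 1097 genes had an unadjusted p under 0.05. The block called 170 of 11102 genes in all.

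In midbrain-like cells Foxd3 read 10.0, 11.4, 2.20 and 8.90 CPM in Tet-TKO and 30.9 and 20.3 CPM in WT host libraries (log2 fold change -1.64, SE 0.46, edgeR adjusted p = 0.152), and the block on library number called it at -1.10. Tfap2b went the other way, at 11.3, 9.44, 12.1 and 10.98 CPM against 5.80 and 7.98 CPM (log2 fold change 0.64, SE 0.23, edgeR adjusted p = 0.277). These 2 of the 7 members tested did not overlap between genotypes, against 23.2% of genes. Pax3 read 54.3 to 75.9 CPM in Tet-TKO and 74.4 CPM in both WT host libraries. No member was called (background 0.51%), and 1408 genes had an unadjusted p under 0.05. The block called 255 of 11178 genes in all.

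The anterior forebrain gives rise to no crest. In forebrain-like cells Foxd3 and Sox10 were under 5 CPM in every library. Sox9 read 54.2, 53.0, 53.2 and 48.7 CPM in Tet-TKO and 45.9 and 40.0 CPM in WT host libraries (log2 fold change 0.32, SE 0.15, edgeR adjusted p = 0.494), and Tfap2b read 3.62, 4.85, 7.40 and 1.87 CPM against 0.466 and 1.64 CPM (log2 fold change 2.01, SE 0.64, edgeR adjusted p = 0.271). Without WT host library 2 the latter was 3.17, and the block on library number called Tfap2b (2.04) and Tfap2a (1.45). Sox9 and Tfap2b did not overlap between genotypes, 2 of 5 members tested against 22.2% of genes. No member was called (background 0.329%), and 1169 genes had an unadjusted p under 0.05. The block called 471 of 10653 genes in all.

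In surface ectoderm-like cells Tfap2a was the highest member in WT host libraries, at a mean of 86.4 CPM, before Sox9 at 52.8 CPM. Tfap2a, which acts throughout the early epidermis, read 80.6, 79.9, 84.1 and 89.1 CPM in Tet-TKO and 88.2 and 84.5 CPM in WT host libraries, with a log2 fold change of -0.04 and a 95% interval of -0.27 to 0.18. Its relative Tfap2b read 11.1, 16.1, 42.1 and 48.0 CPM against 4.02 and 10.1 CPM, a log2 fold change of 2.03 (SE 0.65, edgeR adjusted p = 0.239). Without WT host library 2 it was 2.80, and the block on library number called it at 1.06. The Tet-TKO values fell into a lower pair, libraries 1 and 2, and a higher pair, libraries 3 and 4. The highest WT host value, 10.1 CPM, lay just under the lowest Tet-TKO value of 11.1 CPM. Surface ectoderm-like cells held 45.6% of all Tfap2b UMIs of Tet-TKO and 10.4% of those of WT host cells at E8.5.

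Ets1 read 5.65, 4.71, 4.73 and 7.72 CPM in Tet-TKO and 2.07 and 2.86 CPM in WT host surface ectoderm-like cells (log2 fold change 1.21, SE 0.30, edgeR adjusted p = 0.132). Dlx2 read 15.4, 19.0, 10.99 and 11.9 CPM against 9.13 and 9.93 CPM. Tfap2b, Ets1 and Dlx2 did not overlap, all higher in Tet-TKO cells, 3 of 6 members tested against 25.5% of genes. Sox9 had the opposite sign, with 21.0, 21.1, 22.9 and 53.2 CPM against 47.5 and 58.2 CPM (log2 fold change -0.86, SE 0.34, edgeR adjusted p = 0.364). Without Tet-TKO library 4, edgeR called Sox9 (log2 fold change -1.25, SE 0.13, adjusted p = 0.00748), and the block on library number called it at -1.24. With all libraries no member was called (background 0.592%), and 1601 genes had an unadjusted p under 0.05. The block called 322 of 13016 genes in all. Without Tet-TKO library 4 this was 48 of 12971.

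The surface ectoderm-like class was made of 3 clusters, and Tfap2b was read in each. In cluster 23, with Wnt4 and Wnt6 among its leading genes, Tfap2b read 12.5, 19.5, 20.6 and 19.1 CPM in Tet-TKO and 0.550 and 2.70 CPM in WT host libraries, the latter from 1 and 3 UMIs. Tet-TKO libraries 3 and 4 held 9 cells each of this cluster. In cluster 29, with Trp63 and Sfn among its leading genes, it read 8.26, 7.25, 16.2 and 24.8 CPM against 1.57 and 0.887 CPM, the latter from 2 and 1 UMIs. Counts of up to 3 lie at or under the floor used here, so that the WT host levels in both clusters are not exact. In cluster 9, with Dlx5 and Rab25, it read 10.8, 17.1, 47.2 and 57.4 CPM against 5.86 and 13.7 CPM, and the groups overlapped. The 10 crest markers other than Crabp1 summed to 33.1 to 44.5 CPM in Tet-TKO and to 39.8 and 42.3 CPM in WT host surface ectoderm-like cells, and the erythroid markers to 3.97 to 30.8 CPM against 510 and 1237 CPM. Their part in the differences was not tested.

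**Figure D5:**
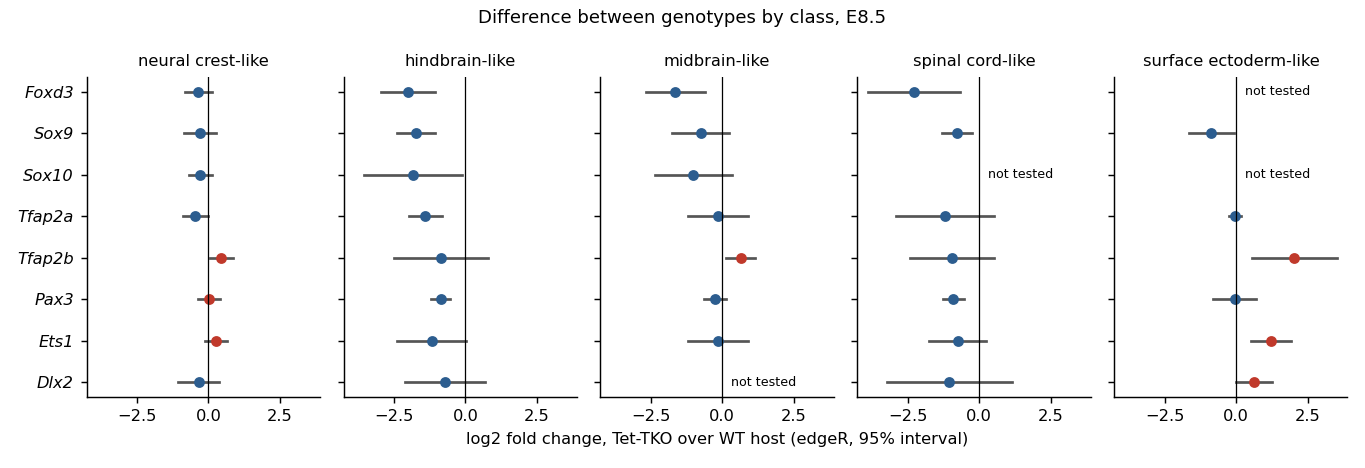
Log2 fold changes of Tet-TKO over WT host cells at E8.5 for each member in neural crest-like, hindbrain-like, midbrain-like, spinal cord-like and surface ectoderm-like cells, with 95% intervals from the edgeR fits (blue under 0, red over 0). All points tested lie left of 0 in hindbrain-like and spinal cord-like cells, and Tfap2b lies right of 0 in midbrain-like and surface ectoderm-like cells.

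Other tissues where a member is known to act were read as well, a choice made after their levels were seen. In endothelium-like cells Ets1 read between 114 and 225 CPM in Tet-TKO libraries and 84.3 and 86.6 CPM in WT host libraries (log2 fold change 0.86, SE 0.24, edgeR adjusted p = 0.121, background 0.905%). In pharyngeal mesoderm-like cells Pax3 read 8.25 to 17.97 CPM against 6.09 and 7.47 CPM (log2 fold change 1.20, SE 0.33, edgeR adjusted p = 0.157, background 0.593%). It was called there with the block on library number (1.47) and without the filter on low counts (1.20). These fits called 282 of 10784 and 243 of 22200 genes in all. In somitic mesoderm-like cells, where Pax3 marks muscle precursors, it read 56.4 to 77.3 CPM against 44.8 and 77.2 CPM (log2 fold change 0.15, SE 0.21, edgeR adjusted p = 0.877, background 0.357%).

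In the sum over all cells of a library, Foxd3 read 0.614, 1.37, 2.45 and 1.52 CPM in Tet-TKO and 3.25 and 6.82 CPM in WT host libraries, a log2 fold change of -1.88 (SE 0.48, edgeR adjusted p = 0.0528). Sox10 read 0.241, 0.407, 1.96 and 1.24 CPM against 1.29 and 4.94 CPM (log2 fold change -1.86, SE 0.80, edgeR adjusted p = 0.197). Without WT host library 2 its log2 fold change was -0.56 and that of Foxd3 -1.23, and without WT host library 1 that of Sox10 was -2.56. The block on library number called Foxd3 (-2.35) and Sox10 (-3.11). Ets1 read 18.1, 19.2, 30.9 and 27.5 CPM against 12.1 and 16.0 CPM (log2 fold change 0.66, SE 0.21, edgeR adjusted p = 0.103). Foxd3 and Ets1 did not overlap between genotypes, against 41% of genes. None of the 8 members was called (background 2.65%, 558 of 21075 genes), and 5626 genes had an unadjusted p under 0.05. DESeq2 called Foxd3 (log2 fold change -1.89, adjusted p = 0.00128). In all, DESeq2 called 1446 and the block 1701 of 21075 genes. In such sums fewer cells of a type and less RNA per cell cannot be told apart.

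The wider crest programme was read from lists of other genes in crest-like cells, by the same fit, in which the median log2 fold change of all genes was 0.01. In this fit 0.609% of all genes were called. Of the 17 genes of specification and epithelial-mesenchymal transition, 14 were tested, 1 was lower and none higher. That gene was Mycn, which keeps progenitors dividing, at 94.2 and 54.2 CPM in Tet-TKO libraries 2 and 3 and 144 and 152 CPM in WT host libraries (log2 fold change -1.27, SE 0.23, edgeR adjusted p = 0.00300), and the median of the list was -0.29. Of 12 receptors and guidance genes, 9 were tested and 1 was higher: Nrp2, a semaphorin receptor of migrating crest, at 131 and 140 CPM against 67.7 and 60.8 CPM (log2 fold change 1.07, SE 0.19, edgeR adjusted p = 0.00300), with a list median of 0.37. Of 9 arch mesenchyme genes, 3 were tested and Prrx1, a homeobox gene of facial mesenchyme, was higher, at 41.0 and 40.9 CPM against 10.6 and 7.43 CPM (log2 fold change 2.23, SE 0.35, edgeR adjusted p = 0.000673), with a list median of 0.28. Tet-TKO libraries 1 and 4, with 5 and 4 cells, were not in the fit. There Mycn read 160 and 84.1 CPM, library 1 lying above both WT host libraries on 15 UMIs. Nrp2 read 96.3 and 112 CPM and Prrx1 85.6 and 25.2 CPM. All 3 calls were lost under DESeq2 (adjusted p = 0.298 for Mycn, 0.288 for Nrp2 and 0.105 for Prrx1) and, by edgeR, without Tet-TKO library 3, where Mycn was at -0.65, Nrp2 at 1.06 and Prrx1 at 2.28 on the log2 scale. Without WT host library 2 all 3 were lost too, at -1.20, 0.93 and 1.84, and without WT host library 1 Mycn and Nrp2 were, at -1.23 and 1.14. Each of these fits without a library leaves 1 group with a single library, which is assumed to vary as the other group does. With 20 cells per sum all 3 calls were lost (-1.10, 0.83 and 2.25), with Tet-TKO libraries summed in pairs Mycn (-1.01) and Nrp2 (0.997) were, and with libraries of at least 5 cells Mycn was (-1.06).

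No gene was called in the other lists with the settings used here, though Sox2, Wnt1 and Zic1 were under alternatives. Without the filter on low counts all 3 were called, at -1.87, -1.69 and 2.34 on the log2 scale. Without Tet-TKO library 2, Sox2 (-2.60) and Wnt1 (-1.66) were called. Sox2 was also called with doublets removed (-2.35) and in cells whose tdTomato matched their fraction (-3.36), and Zic1 at clustering resolution 1 (3.64) and with the members in the clustering (3.57). Among 12 neural plate border genes, 6 tested and with a median of 0.59, Zic1 read 16.4 and 15.6 CPM against 0 and 3.88 CPM and Pax7 32.8 and 33.4 CPM against 9.67 and 18.4 CPM. Among 9 inducing signals, 2 were tested, Wnt1 at 12.3 and 11.1 CPM against 46.4 and 26.8 CPM (log2 fold change -1.63, SE 0.41, edgeR adjusted p = 0.0458) and Bmp7 at 20.5 and 9.66 CPM against 16.4 and 9.37 CPM. The 12.3 CPM of Wnt1 rest on 3 UMIs, at the floor used here. Wnt1 and Zic1 had 0 UMIs in Tet-TKO libraries 1 and 4, which were not in the fit. Among 7 neural progenitor genes, 2 were tested, Sox2 at 36.9 and 7.43 CPM against 48.4 and 39.8 CPM (log2 fold change -1.81, SE 0.44, edgeR adjusted p = 0.0344) and Nes at 28.7 and 63.1 CPM against 29.0 and 34.6 CPM. Of 8 glial, neuronal and pigment genes, 2 were tested, among them Fabp7, a fatty acid binding protein gene of glia, at 28.7 and 17.1 CPM against 18.4 and 22.9 CPM.

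Genes whose levels over the 28 classes of WT host cells were most like a member were sought by Pearson's r of log2(CPM + 1) among 9554 genes, a description of points that share libraries. For Sox10 they included Apod (r = 0.88) and Gm12688. For Foxd3 they were Gm12688 (r = 0.89), Wnt1 (r = 0.88) and Pax7 (r = 0.81), for Tfap2b they included Gm12688 (r = 0.88) and Pax7, and for Dlx2 Pax7 (r = 0.75) and Apod. Tfap2a was nearest to Pax7 (r = 0.86), Dlx5 and Cacna1b, and Pax3 to Zic2 (r = 0.86), Pax7 and Xkr6. The peaks of Pax7, Cacna1b and Xkr6, at 25.8, 25.8 and 20.6 CPM, lay in an unnamed cluster. That cluster held 71952 and 122176 UMIs in WT host libraries 1 and 2, so these peaks rest on few UMIs. Whether Pax7, Cacna1b and Xkr6 would be among the 9554 genes without that cluster was not tested. Sox9 was nearest to Nrep (r = 0.87), Flrt3 and Qrich1, all with their peak in notochord-like cells, and Ets1 to Sdc3 (r = 0.76), Emilin1 and Inka1.

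At E7.5, before crest cells form, no crest-like or surface ectoderm-like class was found, and with 1 library of each genotype no test was made. Foxd3, which also acts in pluripotent epiblast, was at 47.3 CPM in Tet-TKO epiblast-like cells (95% Poisson interval 43.6 to 51.2, 528 cells) and 50.8 CPM in WT host ones (42.5 to 60.3, 182 cells). Over whole libraries it was at 8.21 and 2.03 CPM. Tfap2a was at 38.8 CPM (33.02 to 45.2) in Tet-TKO and 61.0 CPM (49.6 to 74.2) in WT host germ cell-like cells, and Sox9 at 43.2 CPM (20.7 to 79.4) in 19 Tet-TKO and 117 CPM (91.1 to 148) in 61 WT host notochord-like cells. Ets1 was at 70.6 CPM (60.8 to 81.5) and 41.1 CPM (33.97 to 49.2) in haematoendothelial progenitor-like cells.

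Sox10, Tfap2b, Pax3 and Dlx2 were low at that stage. Over whole E7.5 libraries Sox10 had 21 UMIs in Tet-TKO and 11 in WT host cells, at 0.199 and 0.106 CPM, and Tfap2b had 42 and 2, at 0.399 and 0.0193 CPM. Pax3 was at 1.59 and 1.14 CPM and Dlx2 at 1.39 and 0.522 CPM. At 5000 UMIs, at least 3 members were found in 2 of 4775 Tet-TKO cells and in 1 of 6662 WT host cells.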

How the data were processed

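The authors processed the 10x Genomics reads with Cell Ranger (5.0.0 in the methods, 3.1.0 in the file headers), mapped them to mm10 with the GRCm38.92 annotation and tdTomato, and deposited them as raw UMI counts by gene and barcode, between 65601218 and 136982886 UMIs per library. Barcodes under 1500 UMIs, over 30% mitochondrial or over 35% ribosomal UMIs were dropped, and doublets were removed only in an alternative. With doublets removed, crest-like cells fell from 21 to 15 in Tet-TKO library 2 and from 208 to 200 in WT host library 2. Clustering (2500 variable genes without the members, 50 components, 20 mutual nearest neighbours, Leiden resolution 2) used leidenalg 0.10.2 and scikit-learn 1.9.0. Summed counts were tested with edgeR 4.0.16 (filterByExpr, TMM, glmQLFit and glmQLFTest) in R 4.3.3. Standard errors are the log2 fold change over the root of F. In the test on simulated data, edgeR recovered 100% of 200 genes changed by a log2 fold of 2 in crest-like and midbrain-like sums (7718 and 11178 genes), with 0 and 5 false calls, and DESeq2 84.5% and 99%, with 0 and 7. Smaller changes, such as those of the members in crest-like cells, were not simulated. The 200 genes were drawn only from those above the median level, so recovery of genes with low counts was not examined. DESeq2 1.42.0 was an alternative. Members and lists were chosen with earlier results of these data known. Pathway genes were named if called in crest-like cells (up to 3 a list), otherwise as the 2 of smallest p. For likeness, the 3 highest r were named (some genes are not reported here), among genes of at least 20 CPM and classes of at least 50 WT host cells. Alternatives are in the closing section. Intervals and floors (3 counts) cover counting error only. Other samples of the article were not analysed here.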

Additional observations from a re-analysis of the deposited data

Results flagged for a closer look

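In the group of 4 E8.5 Tet-TKO libraries, 5 of 49 values examined by Dixon's test had 1 library far from the others, where chance gives about 1 in 20. Tfap2b in hindbrain-like cells stood at 42.4 CPM in library 4, and the next library was at 6.91 CPM. Sox10 in the same cells stood at 16.1 CPM in library 4, with the next at 2.72 CPM. Both values come from the 23 hindbrain-like cells of that library. Sox9 in surface ectoderm-like cells stood at 53.2 CPM in library 4, with the next at 22.9 CPM. Ets1 in forebrain-like cells stood at 3.62 CPM in library 1, with the next at 2.82 CPM, from 11 and 8 UMIs whose Poisson intervals overlap. Sox10 in spinal cord-like cells stood at 0.179 CPM in library 3, from 1 UMI and so under the floor of 3 counts, the other 3 libraries being at 0.

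For Sox9 and Ets1 every Tet-TKO library lay above both WT host libraries in one class and below them in another, and the difference between classes was not tested. The log2 fold change of Sox9 was 0.32 in forebrain-like cells, -1.73 in hindbrain-like cells and -0.78 in spinal cord-like cells. That of Ets1 was 1.21 in surface ectoderm-like cells and -0.76 in spinal cord-like cells. In forebrain-like cells Ets1 was too low for the fit, and its mean was 2.20 CPM higher in Tet-TKO than in WT host libraries.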

How the results depend on the processing

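The number of members called, 0 in every class and in whole libraries, depended on the test. Over the 5 neural-like and ectoderm-like classes DESeq2 called 2, edgeR without the filter on low counts 9, the replicate block 12, and leaving out 1 library 0 to 2. In the somitic mesoderm-like, pharyngeal mesoderm-like and endothelium-like cells, the fit without the filter called 1 member each, and the block called 1 in the first (Sox9, -1.01), 1 in the second (Pax3, 1.47) and 0 in the last. In the same order, 166 of 21079, 243 of 22200 and 293 of 21649 genes were called in all without the filter. With the block these were 108 of 9815, 282 of 10784 and 354 of 10602 genes. With Tet-TKO libraries summed, 0 members were called in all these 8 classes. In whole libraries DESeq2 called 1, the block 2, and leaving out 1 library 0. In crest-like cells no alternative that was run called any.

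The count of all genes called followed the same choices. In crest-like cells 47 became 17 with DESeq2, 129 without the filter, 22 where Tet-TKO library 1 was added to 2 and 3 to 4, 10 with 20 cells per sum, 241 without Tet-TKO library 2 and 10 without Tet-TKO library 3, both fits in which the lone Tet-TKO library is assumed to vary like the WT host ones. In the order of DESeq2, no filter, replicate block and leaving out 1 library, the 57 of midbrain-like cells became 123, 331, 255 and 9 to 62, the 33 of hindbrain-like cells 66, 188, 118 and 9 to 42, the 35 of forebrain-like cells 99, 266, 471 and 4 to 28, the 29 of spinal cord-like cells 74, 224, 170 and 7 to 36, the 77 of surface ectoderm-like cells 159, 230, 322 and 5 to 53, and the 558 of whole libraries 1446, 949, 1701 and 109 to 230. The lowest of these came without WT host library 2 in each of the 5 classes and without WT host library 1 in whole libraries. With libraries so summed they were 34 (midbrain-like), 29 (hindbrain-like), 4 (forebrain-like), 15 (spinal cord-like), 15 (surface ectoderm-like) and 0 (whole libraries, where 3903 genes had an unadjusted p under 0.05 by edgeR and DESeq2 was not run on these sums).

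Library numbers are shared only by libraries 1 and 2 of each genotype, and their deviations correlated at 0.38 for the libraries numbered 1 and at -0.10 for those numbered 2, but with 2 WT host libraries these deviations mirror each other and cannot show whether the numbers pair the samples. Host and Tet-TKO fractions were sorted from the same pools, and the labels do not say that a number marks a pool, so the pairing is not settled. The block fit rests on those 4 libraries. It turned the sign of Ets1 (0.37) and Tfap2a (0.45) in midbrain-like, Foxd3 (0.14) in forebrain-like and Dlx2 (0.0015) in spinal cord-like cells and of Tfap2b (-0.78) in whole libraries. No block could be made in crest-like cells.

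Signs turned in other settings too. In crest-like cells Pax3 went to -0.047 without the filter and -0.044 with summed libraries, Foxd3 to 0.28 and Sox9 to 0.19 with 20 cells per sum, Bmp7 to 0.054 with DESeq2 and Fabp7 to 0.23 with summed libraries. Leaving out 1 library gave ranges across 0 in crest-like cells for Pax3 (-0.018 to 0.034), Dlx2 (-0.63 to 0.47), Foxd3 (-0.63 to 0.00997), Sox9 (-0.79 to 0.29), Bmp7 (-0.52 to 0.83), Nes (-0.18 to 0.86) and Fabp7 (-0.42 to 0.42). The same held in midbrain-like cells for Tfap2a (-0.50 to 0.26) and Ets1 (-0.53 to 0.10), in hindbrain-like cells for Tfap2b (-2.02 to 0.12) and Ets1 (-1.76 to 0.046), in forebrain-like cells for Foxd3 (-1.23 to 1.80), in spinal cord-like cells for Tfap2b (-1.57 to 0.53), in surface ectoderm-like cells for Pax3 (-0.39 to 0.38) and Tfap2a (-0.094 to 0.012), in somitic mesoderm-like cells for Pax3 (-0.17 to 0.59), and in whole libraries for Tfap2b (-0.69 to 1.36) and Pax3 (-0.58 to 0.30). Ranges that kept their sign but moved by over 1.5 times include Sox10 in hindbrain-like cells (-3.09 to -0.88) and in whole libraries (-2.56 to -0.56), Dlx2 in spinal cord-like cells (-1.79 to -0.54), Tfap2b in forebrain-like (1.48 to 3.17) and surface ectoderm-like cells (1.52 to 2.80), and in crest-like cells Sox2 (-2.60 to -0.21), Pax7 (0.81 to 1.68) and Zic1 (1.96 to 6.77). The 6.77 of Zic1 is set against WT host library 1 alone, which had 0 Zic1 UMIs, so its size is not exact. Of the single-gene values under alternatives, 667 kept sign and call, 42 turned sign, 38 became called and 17 lost a call. The share of cells with at least 3 members, 1.51 percentage points lower in Tet-TKO, turned to 3.605 higher without thinning was -0.474 with at least 2 members, and ranged from -2.62 to -0.387 without 1 library. The causes were not tested. Without a correction between libraries no crest-like class was found. The few crest-like Tet-TKO cells limit all crest comparisons.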
